A study of Homo sapiens with 9 samples.

Results

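The receptors and ligands of the EGFR family were examined in MDA-MB-231, a human cell line from a triple-negative breast tumour, after knockdown of ASAH1, the lysosomal acid ceramidase that splits ceramide into sphingosine and a fatty acid. The set held 10 of the 26485 genes of the deposited tables, chosen by name: the receptors EGFR, ERBB2 and ERBB3 and the ligands AREG, EREG, HBEGF, TGFA, BTC, EPGN and NRG1. The cells, grown in DMEM with serum, carried a stably expressed hairpin, and their RNA was sequenced in 9 libraries: 3 for a nonspecific control (NS shRNA) and 3 for each of the ASAH1 hairpins, shRNA #1 and shRNA #2, with no other allele or agent named. The study asked which genes change when ASAH1 is knocked down in this line. The study names the libraries of a group biological replicates, without saying whether each came from an infection or culture of its own, so p-values measure only the spread between these libraries.

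The EGFR family consists of receptor tyrosine kinases at the cell surface that work in pairs. Ligands are made as membrane-anchored precursors, are cut free by proteases of the ADAM group, and bind either EGFR (amphiregulin, TGF-alpha and epigen) or ERBB3 or ERBB4 (the neuregulins), while betacellulin, epiregulin and HB-EGF can bind both EGFR and ERBB4. ERBB2 has no known ligand and serves as the partner of the others, and ERBB3 has little kinase activity of its own and recruits PI3K. The activated pairs signal through RAS and ERK and through PI3K and AKT, and EGFR is a well-known receptor of triple-negative breast tumours.

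The deposited values were read counts divided by a size factor, called normalized counts below, in 1 table for each ASAH1 hairpin with the NS shRNA libraries. Both comparisons with NS shRNA therefore shared the same 3 control libraries, and their results are not independent of each other. Reads on genes ran from 30989598 to 34867548 per library with NS shRNA, from 23806003 to 39791698 with shRNA #1 and from 35653318 to 49659106 with shRNA #2. The targeted gene ASAH1 fell from 4489 ± 45.4 (SD, n = 3) to 1327 ± 51.9 (SD, n = 3) with shRNA #1 and from 4852 ± 57.9 (SD, n = 3) to 783 ± 22.6 (SD, n = 3) with shRNA #2. Of the markers of this mesenchymal line, VIM, CD44, AXL, CAV1 and FN1 were abundant and SPARC was low, at no more than 89.4. ESR1 and PGR, which define luminal tumours, had normalized counts of at most 2.67 in any library, while the epithelial genes KRT8, KRT18, EPCAM, GATA3 and CDH1 were detected. Of the markers of other cell types, CD3E and DCN reached at most 2.33 and PTPRC and VWF at most 11.2, while PECAM1, at 42.1 to 108 over all libraries, fell with shRNA #1 (-0.59 on the log2 scale, limma adjusted p = 0.02) and shRNA #2 (-0.91, limma adjusted p = 0.00154). Markers of the line also moved with the groups. Of the 6 mesenchymal markers, 2 were higher and 2 lower with shRNA #1, and 1 was higher and 3 were lower with shRNA #2, FN1 changing in opposite directions (log2 fold changes 0.64 and -1.004). Of the 7 luminal and epithelial markers 5 could be tested, of which 1 was higher and 4 were lower with shRNA #1, and 2 were higher and 2 lower with shRNA #2. Of all genes tested, 32.8% were higher and 33.3% lower with shRNA #1, and 33.5% and 33.4% with shRNA #2. These small counts are therefore no result about the markers, and values of single genes are given. KRT8 fell with both (-1.50 and -0.77 on the log2 scale), EPCAM rose with both (0.21 and 0.57), GATA3 fell with shRNA #1 and rose with shRNA #2 (-0.48 and 0.25), and KRT18 fell with shRNA #1 (-0.78) and did not pass with shRNA #2 (0.15). E-cadherin (CDH1) moved most of these, from 400 to 475 with NS shRNA to between 33.7 and 56.2 with shRNA #1, and from 431 to 516 to between 12.9 and 17.5 with shRNA #2, and the part of these markers in the results below was not tested. In RNA from whole cultures, fewer cells that make a transcript and less of it per cell cannot be told apart.

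In NS shRNA cells the family was led by its ligands. Levels were compared between genes per transcript length, as TPM (transcript abundance scaled to a fixed total per library) computed from the reads and the length of the canonical GENCODE transcript. HBEGF, encoding the heparin-binding ligand HB-EGF, stood first at 221 ± 4.24 (SD, n = 3), ahead of AREG at 73.0 ± 2.13 (SD, n = 3). Among the receptors, ERBB2 stood at 56.2 ± 2.67 (SD, n = 3), above EGFR at 27.7 ± 6.71 (SD, n = 3), and ERBB3 was far lower at 4.30 ± 0.34 (SD, n = 3). TGFA had 45.2 ± 3.39 (SD, n = 3), NRG1 12.3 ± 0.81 (SD, n = 3) and EREG 4.70 ± 0.68 (SD, n = 3). EREG and ERBB3 overlapped between libraries, so their order is not settled by this measure. The other neighbours in this order did not overlap, although ERBB2 and TGFA changed places (44.7 against 68.2) when all exons of a gene were used as its length. BTC, at 1.85 ± 0.72 (SD, n = 3), was barely expressed, and EPGN was close to absent, with between 0 and 2 reads in each NS shRNA library.

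Of the 10 genes, 9 had the mean normalized count of at least 10 needed for a test, and EPGN did not. With shRNA #1, 6 of the 9 were higher than with NS shRNA by limma with Benjamini-Hochberg adjustment at 0.05, where 32.8% of all 14341 genes tested were higher. The other 3 were lower, beside 33.3% of all genes. With shRNA #2, 4 were higher and 3 were lower, beside 33.5% and 33.4% of the 14250 genes tested. Apart from the higher genes with shRNA #1, these shares were near the background. The genes were chosen with earlier results of these data known, so none of these counts is a result about the family. The sizes of the single changes are described below. The median log2 fold change of the 9 genes was 0.23 with shRNA #1 and 0.03 with shRNA #2, against 0.0013 and 0.013 for all genes. With 3 libraries against 3, an exact permutation test of a single gene cannot give a p below 0.1, so calls come from limma fitted across all genes.

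**Figure D1:**
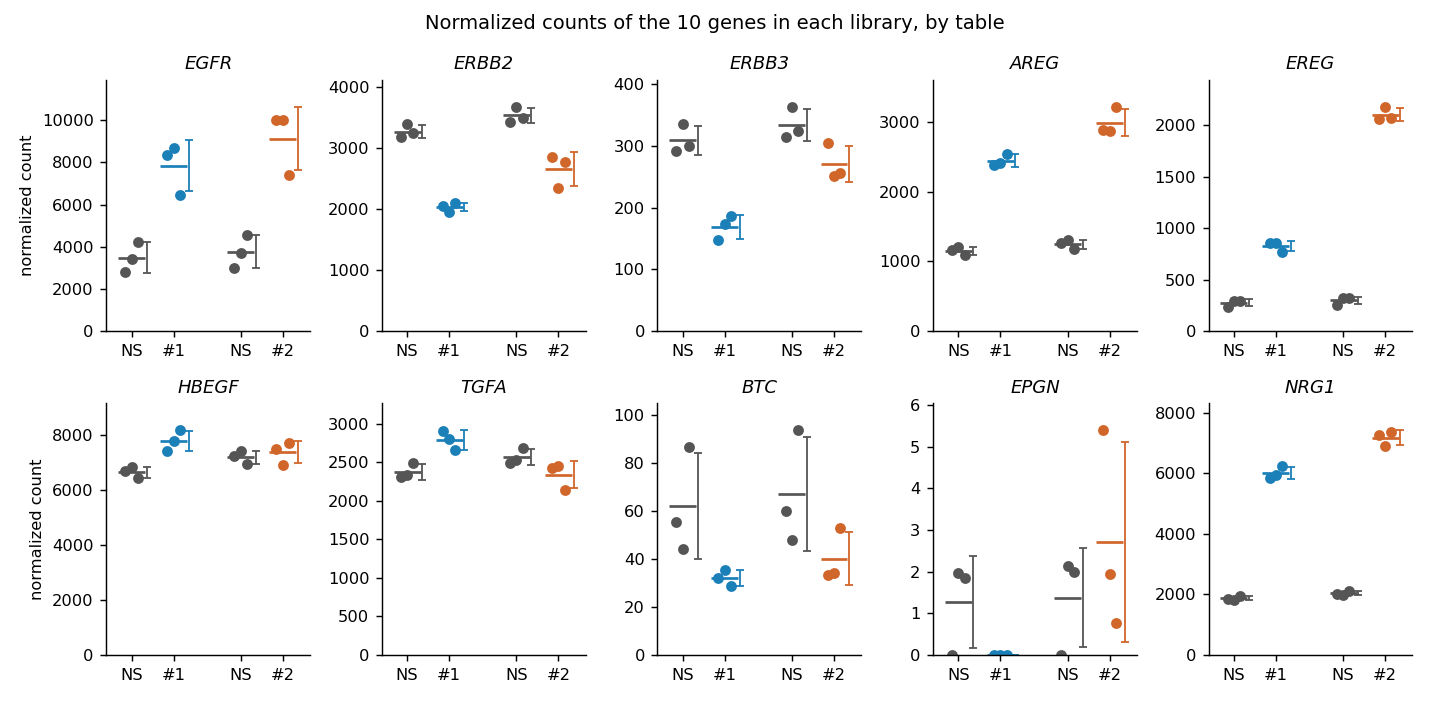
Normalized counts of the 10 genes, 1 panel a gene, on linear axes that start at 0. Points are libraries in the order of their replicate numbers, horizontal lines are group means and bars are the SD (n = 3). In each panel the left pair is the table of ASAH1 shRNA #1 (blue) and the right pair that of ASAH1 shRNA #2 (orange), each beside the same 3 NS shRNA libraries (grey), which have slightly different size factors in the 2 tables. EGFR, AREG, EREG and NRG1 lie above the control libraries in every knockdown library.

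The 3 receptors did not move together. EGFR, on chromosome 7 of hg38 (55019017 to 55211628, 28 exons), rose with both hairpins while ERBB2 and ERBB3 fell. The normalized counts of EGFR with NS shRNA were 2791, 3415 and 4241 in the 3 libraries of the shRNA #1 table, and with shRNA #1 they were 8369, 8706 and 6464. The groups did not overlap, but EGFR varied more than the other abundant members, with the highest control and the lowest knockdown value both in libraries numbered 3. The log2 fold change was 1.18 (standard error, SE, 0.15, limma adjusted p = 9.02e-05), a 2.27-fold rise at the 94.9th percentile of all genes. With shRNA #2 the values were 3012, 3707 and 4573 in the control and 9994, 10015 and 7391 with the hairpin. That log2 fold change was 1.29 (SE 0.15, limma adjusted p = 2.58e-05), and leaving out single libraries moved it between 1.14 and 1.44.

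ERBB2, on chromosome 17 (39687914 to 39730426, 27 exons), encodes HER2, the receptor whose amplification defines another class of breast tumour. Its normalized counts were 3181, 3388 and 3243 with NS shRNA and 2046, 1955 and 2092 with shRNA #1. The libraries of each group lay close together, and the log2 fold change was -0.69 (SE 0.05, limma adjusted p = 2.73e-06). With shRNA #2 the counts went from 3432, 3677 and 3496 to 2851, 2342 and 2778, again without overlap, at a log2 fold change of -0.42 (SE 0.08, limma adjusted p = 0.000735). MIEN1 and PGAP3 overlap ERBB2 on the other strand with 1633 and 257.3 reads per library on average, and the counting used the strand.

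ERBB3, on chromosome 12 (56076799 to 56103505, 28 exons), was the least expressed of the receptors. It had 291, 335 and 300 normalized counts with NS shRNA and 147, 173 and 186 with shRNA #1, with a log2 fold change of -0.87 (SE 0.11, limma adjusted p = 9.82e-05). With shRNA #2 the values were 314, 363 and 324 in the control and 304, 251 and 256 with the hairpin. All hairpin values were below all control values, yet the gap was small beside the spread, at a log2 fold change of -0.31 (SE 0.11, limma adjusted p = 0.0286). This limma call was lost on leaving out NS shRNA replicate 2 (-0.24, adjusted p = 0.116), shRNA #2 replicate 2 (-0.25, adjusted p = 0.0826) or shRNA #2 replicate 3 (-0.27, adjusted p = 0.0751).

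**Figure D2:**
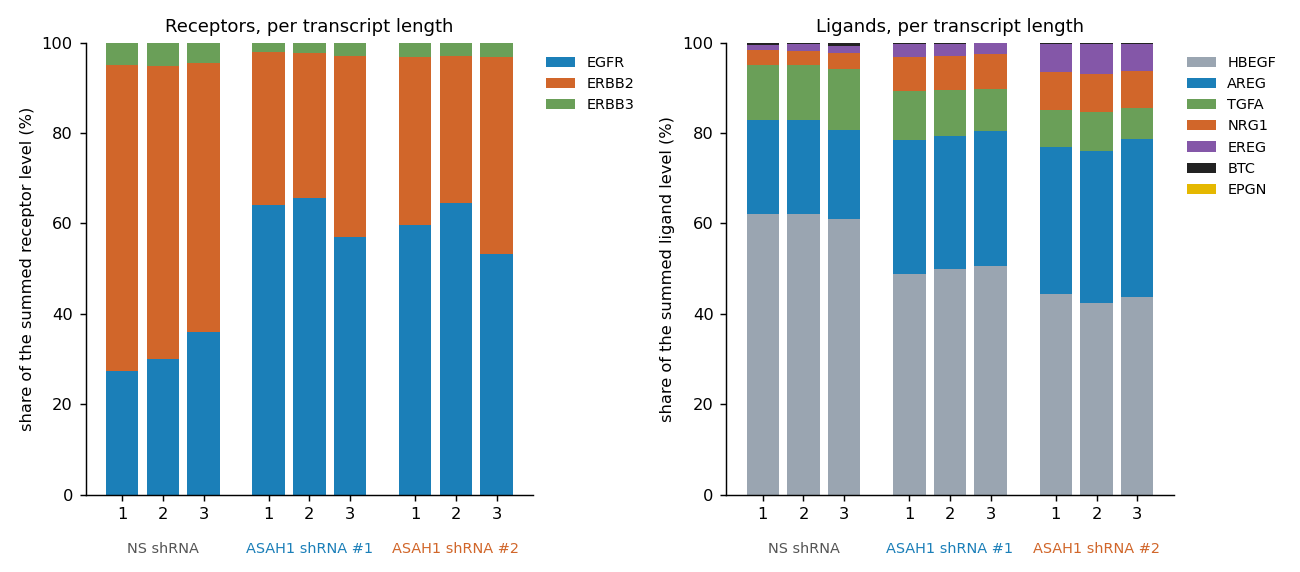
Share of each gene in the summed TPM of the 3 receptors (left) and of the 7 ligands (right), in percent, 1 bar a library, grouped by hairpin and numbered by replicate. EGFR takes between 27.3% and 35.9% of the receptor sum with NS shRNA and between 53.3% and 65.7% in the 6 knockdown libraries, and the grey share of HBEGF shrinks as AREG, NRG1 and EREG grow.

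The makeup of the receptor transcripts changed accordingly. Per transcript length, EGFR made up 31.1% ± 4.38 (SD, n = 3) of the summed receptor level with NS shRNA, 62.2% ± 4.59 (SD, n = 3) with shRNA #1 and 59.1% ± 5.61 (SD, n = 3) with shRNA #2. ERBB2 went from 64.0% ± 4.06 to 35.4% ± 4.197 and 37.8% ± 5.41 (SD, n = 3 each). On this scale the first-placed receptor transcript was ERBB2 in every control library and EGFR in every knockdown library. The order in the controls rests on the lengths used. In reads not divided by length, EGFR was below ERBB2 in NS shRNA replicate 1 (2667 against 3039). It was above ERBB2 in replicates 2 (3480 against 3452) and 3 (4594 against 3512). The sum of the receptors, 88.1 ± 9.23 TPM with NS shRNA, was 101.3 ± 10.2 with shRNA #1 and 106 ± 12.2 with shRNA #2 (SD, n = 3 each), and the libraries of the groups overlapped. The lengths of all exons in place of the canonical transcripts gave EGFR shares of 38.6%, 69.7% and 66.9%.

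The ligand genes EPGN, EREG, AREG and BTC lie on chromosome 4 in that order. Relative to the start of AREG, EPGN begins at -136.7 kb, EREG at -80.0 kb and BTC, on the other strand, at 349.4 kb. Whether promoter sequence bears on the changes of these genes was not tested. RefSeq windows from 250 bases before to 50 bases after the start (GRCh38.p14) are shown for each gene. They are written 5′ to 3′ on the strand of the gene, and capitals mark exact matches to a TATA box (TATAAA), a cAMP response element (TGACGTCA) or a GC box (GGGCGG, or CCGCCC where it lies on the other strand).
AREG (chr4:74444886-74445185, plus strand): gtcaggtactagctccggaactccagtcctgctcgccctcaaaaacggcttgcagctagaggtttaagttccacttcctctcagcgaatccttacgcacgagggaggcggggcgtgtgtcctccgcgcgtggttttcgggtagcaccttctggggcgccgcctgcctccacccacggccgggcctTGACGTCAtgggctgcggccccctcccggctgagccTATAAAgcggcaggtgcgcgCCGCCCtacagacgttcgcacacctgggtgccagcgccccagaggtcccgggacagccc
EREG (chr4:74364895-74365194, plus strand): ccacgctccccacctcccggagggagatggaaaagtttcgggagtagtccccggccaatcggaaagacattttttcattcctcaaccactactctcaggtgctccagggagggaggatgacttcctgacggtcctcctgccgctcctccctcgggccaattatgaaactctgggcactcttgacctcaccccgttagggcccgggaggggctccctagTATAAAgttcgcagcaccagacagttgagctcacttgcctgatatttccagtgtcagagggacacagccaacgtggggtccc
EPGN (chr4:74308220-74308519, plus strand): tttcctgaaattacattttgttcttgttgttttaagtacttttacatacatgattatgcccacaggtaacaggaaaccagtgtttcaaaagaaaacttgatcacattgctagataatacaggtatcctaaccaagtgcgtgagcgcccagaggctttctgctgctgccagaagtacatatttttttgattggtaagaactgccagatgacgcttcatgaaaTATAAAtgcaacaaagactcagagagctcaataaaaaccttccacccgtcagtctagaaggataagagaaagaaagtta
BTC (chr4:74794474-74794773, minus strand): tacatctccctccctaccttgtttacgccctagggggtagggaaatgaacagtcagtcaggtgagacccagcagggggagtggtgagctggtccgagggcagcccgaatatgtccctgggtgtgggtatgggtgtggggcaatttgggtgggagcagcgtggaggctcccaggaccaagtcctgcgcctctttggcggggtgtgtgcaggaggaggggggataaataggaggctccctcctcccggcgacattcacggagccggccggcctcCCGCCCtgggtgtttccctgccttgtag
AREG, EREG and EPGN each held a TATA box, beginning 29, 32 and 29 bases before the start, a motif found on either strand in 11.5% of the 35116 promoter windows of the table. BTC held none. The AREG window also held a cAMP response element, beginning 65 bases before the start, which was present in 1.85% of all windows, and a GC box, present in 45.0%. Windows for 8 of the 10 genes were in the table. HBEGF held 5 GC boxes, of which 2 overlapped, and the first listed windows of TGFA and EGFR held 4 and 3, without a TATA box. The other listed window of EGFR (chr7:55109589-55109888) lies inside the gene, and whether that start was used was not tested. It held 2 TATA boxes, beginning at -146 and -36 relative to that start. It also held 2 AP-1 sites (TGACTCA, 4.95% of windows), beginning at -232 and -136. The only listed ERBB2 window (chr17:39687844-39688143), at the 5′ edge of the gene, matched none of these motifs and no C/EBP-ATF element (TGATGCAA, 0.87%). Any other start of ERBB2 was not searched. The matches are of letters only, and no binding was measured.

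EREG and AREG encode epiregulin and amphiregulin, and both rose with both hairpins. EREG (74365145 to 74388749, 5 exons) had normalized counts of 239, 294 and 297 with NS shRNA and 858, 852 and 771 with shRNA #1. Its log2 fold change was 1.58 (SE 0.10, limma adjusted p = 9.63e-07), a 2.99-fold rise. With shRNA #2 it went from 257, 320 and 321 to 2063, 2178 and 2064, far outside the control range. That was the strongest change of any member, with a log2 fold change of 2.81 (SE 0.09, limma adjusted p = 7.11e-09) or 7.04-fold, at the 99.6th percentile of all genes tested.

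AREG (74445136 to 74455005, 6 exons) had 1168, 1200 and 1089 normalized counts with NS shRNA and 2377, 2412 and 2543 with shRNA #1. Replicates agreed closely, and the log2 fold change was 1.08 (SE 0.06, limma adjusted p = 3.75e-07), 2.12-fold. In the shRNA #2 table the values were 1260, 1303 and 1174 in the control and 2876, 2874 and 3217 with the hairpin, giving a log2 fold change of 1.26 (SE 0.07, limma adjusted p = 1.65e-07).

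BTC, encoding betacellulin (74744759 to 74794523, 6 exons), went the other way at a low level. It had 55.5, 44.2 and 86.8 normalized counts with NS shRNA and 32.1, 35.3 and 28.8 with shRNA #1, with a log2 fold change of -0.88 (SE 0.25, limma adjusted p = 0.0111). With shRNA #2 the values of 59.9, 47.9 and 93.6 and of 33.4, 34.0 and 52.7 overlapped, and the log2 fold change of -0.71 (SE 0.27, limma adjusted p = 0.0412) was close to the threshold. The limma call was lost when NS shRNA replicate 1 (adjusted p = 0.0717), NS shRNA replicate 3 (log2 fold change -0.44, adjusted p = 0.160), shRNA #2 replicate 1 (adjusted p = 0.130) or shRNA #2 replicate 2 (adjusted p = 0.103) was left out. With only 24 to 94 reads per library, BTC is the least certain of the genes tested. EPGN had 0 reads in each library with shRNA #1 and 5, 2 and 1 reads with shRNA #2, against 0, 2 and 2 with NS shRNA, which is too few for a comparison.

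**Figure D3:**
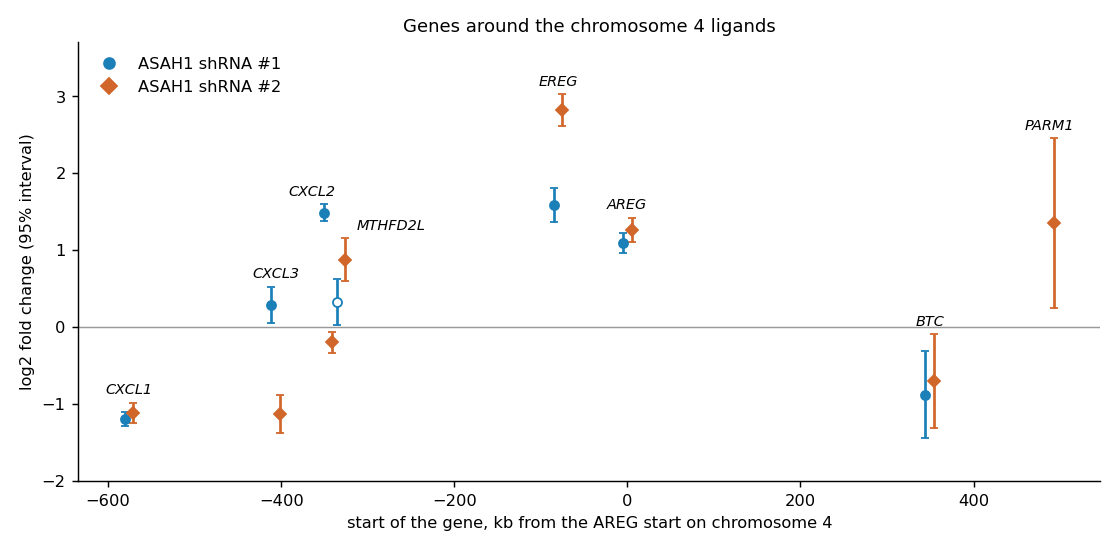
Log2 fold changes against NS shRNA (vertical axis, limma, with 95% intervals) of the genes on chromosome 4 within 500000 bases of AREG, EREG, EPGN or BTC that had enough reads for a test, by the distance of their start from that of AREG in kb (horizontal axis). Blue circles are ASAH1 shRNA #1 and orange diamonds ASAH1 shRNA #2, and an open symbol did not pass the adjusted threshold. EREG and AREG are well above 0 with both hairpins, with CXCL1 and BTC below 0 on either side of them.

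Of 11 other annotated genes within 500000 bases of any of the 4 genes, 4 could be tested with shRNA #1, of which 2 were higher and 1 lower, and 5 with shRNA #2, of which 2 were higher and 3 lower. With 32.8% to 33.5% of all genes called in each direction, these small counts are no result about the neighbours, and the values of single genes are given. The chemokine gene CXCL1, at -575.7 kb, fell with shRNA #1 (log2 fold change -1.20, SE 0.04) and with shRNA #2 (log2 fold change -1.12, SE 0.06), with adjusted p of 3.19e-08 and 1.46e-07 from limma. CXCL2, at -345.9 kb, rose with shRNA #1 (1.48, SE 0.05) and fell slightly with shRNA #2 (-0.20, SE 0.06). CXCL3, at -406.3 kb, likewise was higher with shRNA #1 (0.29, SE 0.10) and lower with shRNA #2 (-1.13, SE 0.11). No other tested gene lay between EREG and AREG.

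HBEGF and TGFA, both abundant ligands, changed little. HBEGF, on chromosome 5 (140332843 to 140346603, 6 exons), had normalized counts of 6714, 6836 and 6446 with NS shRNA and 7439, 7795 and 8185 with shRNA #1. These groups did not overlap, and the log2 fold change was 0.23 (SE 0.05, limma adjusted p = 0.00286), 1.17-fold. With shRNA #2 the control values of 7244, 7421 and 6950 and the hairpin values of 7495, 6939 and 7717 overlapped, and the log2 fold change was 0.03 (95% interval -0.09 to 0.16, limma adjusted p = 0.616). TGFA, on chromosome 2 (70447284 to 70554193, 6 exons), had 2304, 2333 and 2485 normalized counts with NS shRNA and 2908, 2797 and 2654 with shRNA #1, a log2 fold change of 0.23 (SE 0.06, limma adjusted p = 0.00461). With shRNA #2 it had 2486, 2532 and 2680 in the control and 2429, 2448 and 2143 with the hairpin. Each hairpin value was below the control values, but the log2 fold change of -0.13 (95% interval -0.29 to 0.02, limma adjusted p = 0.104) did not pass the threshold. It did so when the libraries were scaled to a common upper quartile (-0.22, adjusted p = 0.0120).

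NRG1, on chromosome 8 (31639222 to 32855666), encodes neuregulin-1, which binds ERBB3 and ERBB4 rather than EGFR. It rose by similar amounts with both hairpins. Its normalized counts were 1860, 1827 and 1952 with NS shRNA and 5850, 5942 and 6253 with shRNA #1, with a log2 fold change of 1.68 (SE 0.05, limma adjusted p = 1.16e-08), 3.20-fold. With shRNA #2 they went from 2007, 1984 and 2104 to 7262, 6911 and 7370, with a log2 fold change of 1.82 (SE 0.05, limma adjusted p = 5.07e-09), 3.53-fold. Leaving out single libraries moved these values only between 1.65 and 1.71 and between 1.80 and 1.85. NRG1 thus rose in cells in which the transcript of its receptor ERBB3 was lower. With shRNA #2 that fall of ERBB3 was small, and its call was lost when some single libraries were left out. ERBB4, its other receptor, had normalized counts between 0 and 5.97 in all libraries.

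Per transcript length, the sum of the 7 ligands was 358 ± 8.48 TPM with NS shRNA, 532 ± 12.1 with shRNA #1 and 489 ± 5.34 with shRNA #2 (SD, n = 3 each). The level of HBEGF was 221 ± 4.24 TPM with NS shRNA, 264 ± 10.5 with shRNA #1 and 213 ± 6.84 with shRNA #2 (SD, n = 3 each). Its share of the ligand sum fell from 61.7% ± 0.63 to 49.7% ± 0.88 and 43.5% ± 0.96, and it remained the first ligand in each library. AREG went from 20.4% ± 0.61 to 29.7% ± 0.25 with shRNA #1 and 33.7% ± 1.16 with shRNA #2. NRG1 went from 3.43% ± 0.19 to 7.53% ± 0.06 and 8.33% ± 0.12, and EREG from 1.31% ± 0.16 to 2.695% ± 0.24 and 6.34% ± 0.43 (SD, n = 3 each). These shares count transcripts and do not weigh how strongly each ligand binds.

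The order of the levels also shifted. With shRNA #1, EGFR at 63.4 ± 10.7 TPM overlapped TGFA at 54.1 ± 3.13 next after HBEGF and AREG, and NRG1 at 40.1 ± 0.94 stood above ERBB2 at 35.6 ± 0.64 (SD, n = 3 each). With shRNA #2, EGFR at 62.9 ± 11.97 came next after HBEGF and AREG, and NRG1 at 40.7 ± 0.72, ERBB2 at 39.6 ± 3.57 and TGFA at 38.7 ± 3.89 overlapped, followed by EREG at 31.0 ± 1.75 (SD, n = 3 each). Parts of this order rest on the lengths used. When all exons of a gene were its length, mean TGFA with shRNA #1 was above EGFR (79.8 against 69.4). With shRNA #2, TGFA was then at 57.9, and EREG at 44.7 stood above NRG1 at 40.8 and ERBB2 at 31.2.

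**Figure D4:**
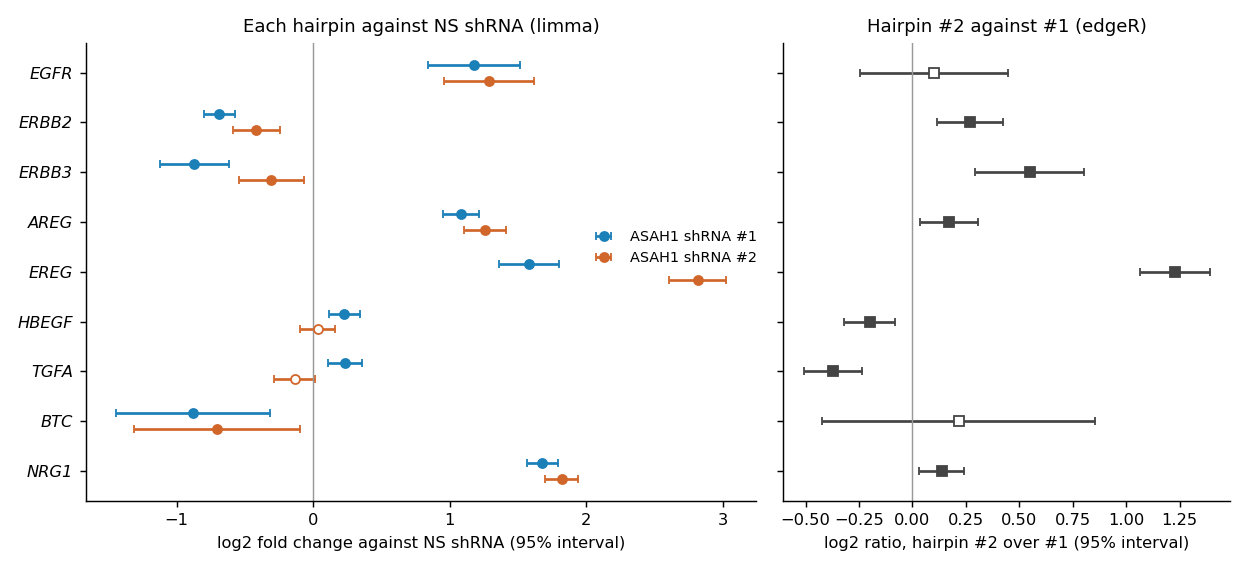
Log2 differences of the 9 genes tested, with 95% intervals. Left, each hairpin against the control by limma on the log2 scale with 1 added to each normalized count, blue for ASAH1 shRNA #1 and orange for ASAH1 shRNA #2. Right, shRNA #2 over shRNA #1 by edgeR, on a scale of its own. Open symbols did not pass an adjusted p of 0.05, and EREG stands farthest from 0 in the right panel at 1.23.

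Between the hairpins, EREG differed most of the family members. In the direct test by edgeR on the reads of all 9 libraries, 5 of the 9 genes were higher with shRNA #2 than with shRNA #1 and 2 were lower, beside 31.1% and 32.1% of the 14714 genes tested. The number higher was 3 in place of 5 under upper quartile scaling, and likewise without shRNA #1 replicate 1, shRNA #1 replicate 2 or shRNA #2 replicate 3. ASAH1 itself was lower with shRNA #2 by a log2 ratio of -0.88 (SE 0.05, edgeR adjusted p = 6.82e-08). The widest gap among the members was that of EREG, whose log2 ratio of 1.23 (SE 0.08, edgeR adjusted p = 1.08e-07) meant a level 2.34-fold higher with shRNA #2. ERBB3 was 1.46-fold higher (log2 ratio 0.55, SE 0.12, adjusted p = 0.00154) and ERBB2 1.20-fold higher (log2 ratio 0.27, SE 0.07, adjusted p = 0.00607) with shRNA #2, which left them nearer to the control. TGFA (log2 ratio -0.37, SE 0.06, adjusted p = 0.000297) and HBEGF (log2 ratio -0.20, SE 0.05, adjusted p = 0.00725) were lower with shRNA #2.

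AREG and NRG1 differed by less, at log2 ratios of 0.17 (SE 0.06, edgeR adjusted p = 0.0301) and 0.14 (SE 0.05, edgeR adjusted p = 0.0281). Under upper quartile scaling, these became 0.09 and 0.05 (adjusted p = 0.234 and 0.350), and the gap in NRG1 also lost its call without shRNA #1 replicate 1 or 2 or without shRNA #2 replicate 1 or 3. AREG lost its call without shRNA #1 replicate 1 or 2 or without shRNA #2 replicate 3. For EGFR the log2 ratio was 0.10 (95% interval -0.24 to 0.44, edgeR adjusted p = 0.595) and for BTC 0.22 (95% interval -0.42 to 0.86, adjusted p = 0.532), intervals that leave room for differences of either sign.

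The family members that the set did not include were low or fell. EGF, the prototype ligand of EGFR, had 183, 217 and 192 normalized counts with NS shRNA and 115, 145 and 113 with shRNA #1, a log2 fold change of -0.67 (SE 0.13, limma adjusted p = 0.0013). With shRNA #2 it had 198, 235 and 207 in the control and 80.9, 69.0 and 94.6 with the hairpin, a log2 fold change of -1.39. The neuregulin gene NRG2 was near the limit of testing, at 26.2 to 36.01 with NS shRNA and 4.01 to 13.7 with shRNA #1, and fell by 1.95 on the log2 scale with shRNA #1 and by 2.29 with shRNA #2. ERBB4, NRG3 and NRG4 had too few reads for a test.

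The list of genes that release the ligands from the membrane held 12 genes. Of these, ADAM proteases, their iRhom cofactors and the inhibitor TIMP3 among them, 5 were higher and 5 lower with shRNA #1, and 5 higher and 6 lower with shRNA #2, with median log2 fold changes of -0.13 and -0.04 beside 0.0013 and 0.013 for all genes. In the direct edgeR test of the hairpins, 5 were higher and 4 lower with shRNA #2. Beside the background of all genes (32.8% higher and 33.3% lower with shRNA #1, 33.5% and 33.4% with shRNA #2, 31.1% and 32.1% between the hairpins), the counts of this list are no result about it. ADAM10, a protease that cuts the precursors of EGF and betacellulin, had 13920 to 16417 normalized counts with NS shRNA and 5956 to 6358 with shRNA #1, a log2 fold change of -1.29 (SE 0.06), but fell by only 0.22 (SE 0.07) with shRNA #2. ADAM8 fell by 0.80 (SE 0.04) on the log2 scale with shRNA #1 and by 1.67 (SE 0.06) with shRNA #2. RHBDF1, which encodes the ADAM17 cofactor iRhom1, fell by 0.49 (SE 0.05) and 0.51 (SE 0.06). ADAM17, the protease that cuts the precursors of amphiregulin, epiregulin, TGF-alpha and HB-EGF, had 1790 to 2247 normalized counts with NS shRNA and 2289 to 2593 with shRNA #1 and rose by a log2 fold change of 0.29 and, with shRNA #2, of 0.28. ADAM15 rose as well (0.26 and 0.70), while ADAM12 (0.47 and -1.42) and ADAM19 (0.31 and -0.55) rose with shRNA #1 and fell with shRNA #2. The inhibitor gene TIMP3 fell with shRNA #1 (-0.53) and rose with shRNA #2 (0.26). RHBDF2, of the same list, did not pass with shRNA #1 (-0.10) and fell with shRNA #2 (-0.68). ADAM17, TIMP3 and RHBDF2 are outside the rule that chose the named genes of this list and were named after their values had been seen.

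**Figure D5:**
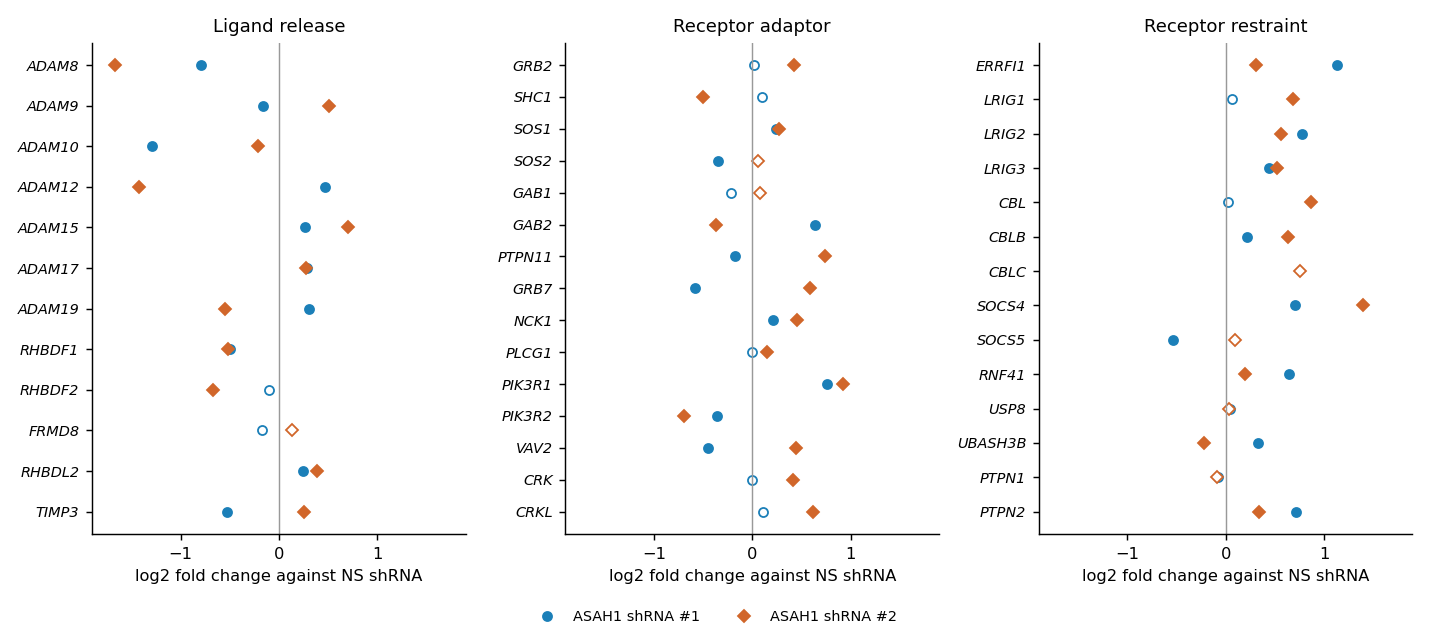
Log2 fold changes against NS shRNA (horizontal axes, limma) of the genes of 3 lists: ligand release, receptor adaptors and receptor restraint. Blue circles are ASAH1 shRNA #1 and orange diamonds ASAH1 shRNA #2, filled where the adjusted p was below 0.05, and CBLC had too few reads for a test with shRNA #1. Ligand release genes lie on both sides of 0, and most genes of the receptor restraint list lie to the right of it.

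The list of adaptors that relay the signal of the receptors held 15 genes. Of these, 4 were higher and 5 lower with shRNA #1, and 10 higher and 3 lower with shRNA #2, with median log2 fold changes of 0.0013 and 0.42. The background was 32.8% higher and 33.3% lower with shRNA #1 and 33.5% and 33.4% with shRNA #2. In the direct test by edgeR, 10 of the 15 were higher and 3 lower with shRNA #2, beside 31.1% and 32.1% of all genes. PIK3R1, a regulatory subunit of PI3K, rose with shRNA #1 (0.76, SE 0.10) and shRNA #2 (0.92, SE 0.10), whereas its relative PIK3R2 fell (-0.35, SE 0.05, and -0.69, SE 0.06). NCK1 (0.21 and 0.45) and SOS1 (0.24 and 0.28), an exchange factor for RAS, rose by less. GRB7, an adaptor that binds ERBB2 and whose gene lies near it, fell with shRNA #1 (-0.58, SE 0.13) and rose with shRNA #2 (0.59, SE 0.13). GAB2 rose with shRNA #1 (0.64, SE 0.10) and fell with shRNA #2 (-0.36, SE 0.12).

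The list called receptor restraint was of genes whose proteins inhibit, ubiquitinate, deubiquitinate or dephosphorylate the receptors. Such proteins can act in opposite ways on a receptor, so a rise of the list is not read as more restraint. The list held 14 genes. Of these, 13 were tested with shRNA #1, of which 8 rose and 1 fell, and all 14 with shRNA #2, of which 9 rose and 1 fell, and the median log2 fold changes were 0.32 and 0.43. Of all genes, 32.8% rose and 33.3% fell with shRNA #1, and 33.5% rose and 33.4% fell with shRNA #2. Between the hairpins, 5 were higher and 5 lower with shRNA #2 by edgeR, near the 31.1% and 32.1% of all genes. ERRFI1, which encodes the EGFR inhibitor MIG6, rose from 9558 to 10357 normalized counts with NS shRNA to between 20847 and 22579 with shRNA #1, a log2 fold change of 1.13 (SE 0.05, limma adjusted p = 1.06e-07). Its rise with shRNA #2 was smaller, at 0.31 (SE 0.06, adjusted p = 0.00087). SOCS4, which binds EGFR and lowers its level, rose with shRNA #1 (0.71, SE 0.09) and more with shRNA #2 (1.40, SE 0.09). LRIG2 (0.78 and 0.56), of the LRIG family of membrane proteins, and the phosphatase gene PTPN2 (0.72 and 0.34) rose with both. UBASH3B rose with shRNA #1 (0.32) and fell with shRNA #2 (-0.22). No test set these lists against the rest of the genes, and they were chosen with earlier results of these data known.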

How the data were processed

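RNA of 9 libraries of MDA-MB-231 cells was sequenced by the authors as strand-specific poly(A) libraries. Per the submitters' processing notes, reads were trimmed with Trimmomatic 0.36, aligned to hg38 with STAR 2.7.1a, counted with HTSeq and normalized with DESeq2 1.28; another paragraph of the methods names RSEM, TMM and edgeR. The deposited signal is a read count divided by the size factor of its library, in 1 table of 26485 genes for each ASAH1 hairpin. The tables also hold the authors' own fold changes and p-values, which were not used. All values (100% within 0.1 reads) were whole reads divided by 1 factor per library, so reads were recovered; the reads of NS shRNA were the same in both tables (0 differences). 28 symbols turned into dates were read from the other table. The 10 genes and all lists were chosen with earlier results of these data known.

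Each hairpin was compared with NS shRNA within its table by limma 3.58.1 (intensity trend, two-sided) on log2 values (1 was added to each normalized count), restricted to genes whose mean reached 10, with Benjamini-Hochberg adjustment at 0.05. Fold changes on this scale understate changes of low genes. The direct test of 1 hairpin against the other used edgeR 4.0.16 (quasi-likelihood, TMM) on the recovered reads of the 9 libraries. R was 4.3.3 and Python 3.11.15. Named were the 10 genes, ASAH1, the other family members, and from each list up to 4 genes whose mean reached 100 in each table and that had the greatest average change of those passing in the same direction with both hairpins, plus up to 2 passing in opposite directions, and chromosome 4 neighbours that passed with both hairpins and had such a mean. Gene positions and lengths came from GENCODE v44, not the UCSC annotation used for counting. TPM covered 23161 symbols with a length. The fits were tested on simulated data. As alternatives, pseudocounts of 0.1 and 5 were tried, then no filter or a minimum mean of 50, no trend, robust moderation, upper quartile scaling, edgeR or DESeq2 1.42.0 on the reads, 1 fit of all libraries, a replicate block and each library left out. Intervals cover 95%.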

Additional observations from a re-analysis of the deposited data

Results flagged for a closer look

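7 genes of the family differed between the hairpins by the direct edgeR test of shRNA #2 against shRNA #1 (n = 3 libraries each). The log2 ratios of the 5 genes that were higher with shRNA #2 were 1.23 for EREG, 0.547 for ERBB3, 0.268 for ERBB2, 0.171 for AREG and 0.136 for NRG1. The 2 that were lower with shRNA #2 were TGFA at -0.371 and HBEGF at -0.20. Of all 14714 genes tested, 31.1% were higher and 32.1% lower with shRNA #2, so a difference of this kind is common. AREG and NRG1 lost their calls under upper quartile scaling (log2 ratios 0.09 and 0.05, edgeR adjusted p = 0.234 and 0.350). Knockdown was deeper with shRNA #2, with ASAH1 at a log2 ratio of -0.88 against shRNA #1, and its part in these differences was not tested. With 1 library set for each hairpin sequence, the depth of the knockdown and other properties of a hairpin cannot be told apart.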

How the results depend on the processing

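With shRNA #1, all 9 genes kept their direction and call under the alternatives run, except that BTC was not tested at a mean of at least 50. With shRNA #2, EGFR, ERBB2, AREG, EREG and NRG1 kept theirs in all 17 alternatives. HBEGF changed sign under upper quartile rescaling (-0.055), as did, between the hairpins, EGFR (-0.019 to 0.235) and BTC (-0.048 to 0.328) when single libraries were left out. The count of lower genes with shRNA #2 ran from 1 to 2 over the libraries left out, 1 being without shRNA #2 replicate 2. The count of genes higher with shRNA #2 than with shRNA #1 ran from 3 to 5 over the libraries left out and was 3 under upper quartile scaling. BTC with shRNA #2 lost its call with no filter (adjusted p = 0.0641 by limma), without the trend (0.0737) and by DESeq2 (0.0525). Upper quartile scaling moved the median log2 fold change of all genes with shRNA #2 from 0.013 to -0.077 and the share of calls that were higher from 50.1% to 42.0%, and between the hairpins from 49.2% to 40.0%. The cause of these changes was not tested. The replicate numbers of the labels were not taken as pairs: same-numbered libraries of NS shRNA and a hairpin deviated from their group means with correlations of -0.30 to -0.09, and those of shRNA #1 and shRNA #2 with 0.053, 0.093 and 0.20, not all above 0.1. With a replicate block in the fit, 6 genes were called with shRNA #2 instead of 7 (ERBB3 at an adjusted p of 0.0666) and 6 instead of 7 between the hairpins (AREG at 0.0602). Depth limits BTC and EPGN.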
